A study of Drosophila melanogaster with 10 samples.

Results

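The effect of carrying the third chromosome of the Zimbabwe strain Z30 in place of that of the strain Fr was measured in the heads of female Drosophila melanogaster. All 10 arrays of the study entered the comparison, 5 with the third chromosome from Z30 and 5 with it from Fr, as given by the third letter of each genotype. The 5 arrays with the third chromosome from Z30 were 2 arrays of the pure strain Z30 (Z30 1 and Z30 2) and 1 array each of the substitution lines MMZ, MZZ and ZMZ. The 5 arrays with it from Fr were 2 arrays of the pure strain Fr (Fr 1 and Fr 2) and 1 array each of the lines MZM, ZMM and ZZM. In a line's name the letters stand for the X, the second and the third in turn, and Z means a chromosome from Z30 and M a chromosome from Fr. All flies were nonvirgin females of 3 to 5 days, and each RNA sample came from a pool of 100 to 200 heads. A line is a single genotype on a single array, the origin of the fourth chromosome and the mitochondria is not labelled, and nothing labels the 2 arrays of a parent as separate cultures. The p-values below therefore measure no more than the spread of arrays around the fitted chromosome effects. Part or all of that spread may be technical, and any departure of a genotype from the fitted effects enters it too.

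Z30 belongs to the Z type of this species, known from Zimbabwe, whose females mate reluctantly with males of the M type found in most of the rest of the world. Genetic mapping of this behaviour has placed much of the female preference on the autosomes, with a strong contribution of the third chromosome. Substituting whole chromosomes asks which transcripts follow the origin of the chromosome while the rest of the genome varies around it. A gene can follow it because its own regulatory sequence is on that chromosome, which is action in cis, or because a regulator encoded there acts on it, which is action in trans. Arrays of whole substituted chromosomes do not separate regulatory sequence of the gene itself from a regulator elsewhere on the same chromosome. Probe sequences were not used here, so whether strain differences in sequence under a probe set altered its signal was not tested.

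Signals are the deposited linear intensities, and differences are the third chromosome from Z30 minus that from Fr on a log2 scale, estimated with the origins of the first and second chromosomes as covariates. Arrays Z30 1 and Fr 1 differed from the rest. Their brightest probe sets reached 28895 and 26039, where the other 8 arrays reached 46285 to 59815, and their hybridisation controls averaged 538 and 651, where the others had 1500 to 2179. The median rank correlation with the other arrays was 0.785 for Z30 1, 0.806 for Fr 1, 0.820 for MZM and 0.890 to 0.915 for the remaining 7. Each origin holds 1 of these 2 arrays, and calls are given from the additive fit and from the same fit with these 2 arrays as a block. Differences and folds are those of the additive fit. Marker lists for eye, neurons, fat body, glia, muscle, hemocytes, olfactory organs, ovary, testis and midgut had overlapping summed signals in the 2 origins. With Z30 1 or Fr 1 in each origin, overlap of ranges is a weak comparison, and only 1 neuron marker was bright enough to test. Eye markers, of which 3 of 9 matched a probe set, summed to 47828 to 91764 with the third chromosome from Z30 and to 43316 to 93342 with it from Fr. Ovary markers, 9 of 11 matched, summed to 1101 to 2665 with it from Z30 and to 1127 to 2557 with it from Fr, and 2 of the 10 testis and male gland markers that matched were at the floor on all arrays.

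Of 8379 probe sets tested, 8 were called by limma at a Benjamini-Hochberg adjusted p under 0.05, which is 0.0955% of those tested. All 8 were on the third chromosome, which holds 39.2% of the probe sets tested. The 2 that rose (0.0239% of those tested) with the third chromosome from Z30 encode smash, a LIM-domain protein of epithelial junctions, and Bili, a FERM-domain protein known to inhibit Wnt/Wingless signalling. The 6 that fell (0.0716%) encode Lsp2, a hexamerin storage protein of the fat body, the Hsp70-family chaperone Hsc70-2, CG11426 of the lipid phosphate phosphatase family, CG7966, the cytosolic aconitase Irp-1B and the omega-class glutathione S-transferase GstO3. After each array was centred on its median the additive fit called 1 higher and 8 lower, in place of 2 and 6. With the array block limma called 34 probe sets, 0.406% of those tested. The 34 with the block included all 8, with 15 higher (0.179% of those tested) and 19 lower (0.227%) when the third chromosome came from Z30. Of the 34, 31 name a single gene, and all 31 genes lie on the third chromosome, 7 on its left arm 3L and 24 on its right arm 3R. These were 0.491% of the 1426 probe sets tested on 3L and 1.29% of the 1855 on 3R. At an unadjusted p under 0.05 in the additive fit the shares were 7.85% on 3L and 8.03% on 3R. The 3 others pair with no single gene.

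The share of probe sets at an unadjusted p under 0.05 in the additive fit was 4.49% over all tested (376 probe sets), and 7.51% with the array block. In the additive fit it was 7.95% on the third chromosome (261 of 3281), 2.92% on X (38 of 1302) and 1.21% on the second (34 of 2811), and with the block 12.2%, 5.3% and 2.92%. The origins of the other 2 chromosomes had their highest shares on their own chromosomes, 8.45% on X for the origin of the first chromosome and 7.47% on the second for the origin of the second. Probe sets of the third chromosome passed at 0.671% under the origin of the first and 1.83% under the origin of the second. Differences over 1 log2 unit numbered 79 on the third chromosome, 41 higher and 38 lower with the chromosome from Z30, against 12 each on X and the second. The median absolute difference was 0.22 on the third chromosome, 0.188 on X, 0.176 on the second and 0.195 over all tested. The median signed difference over all tested was 0.04.

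**Figure D1:**
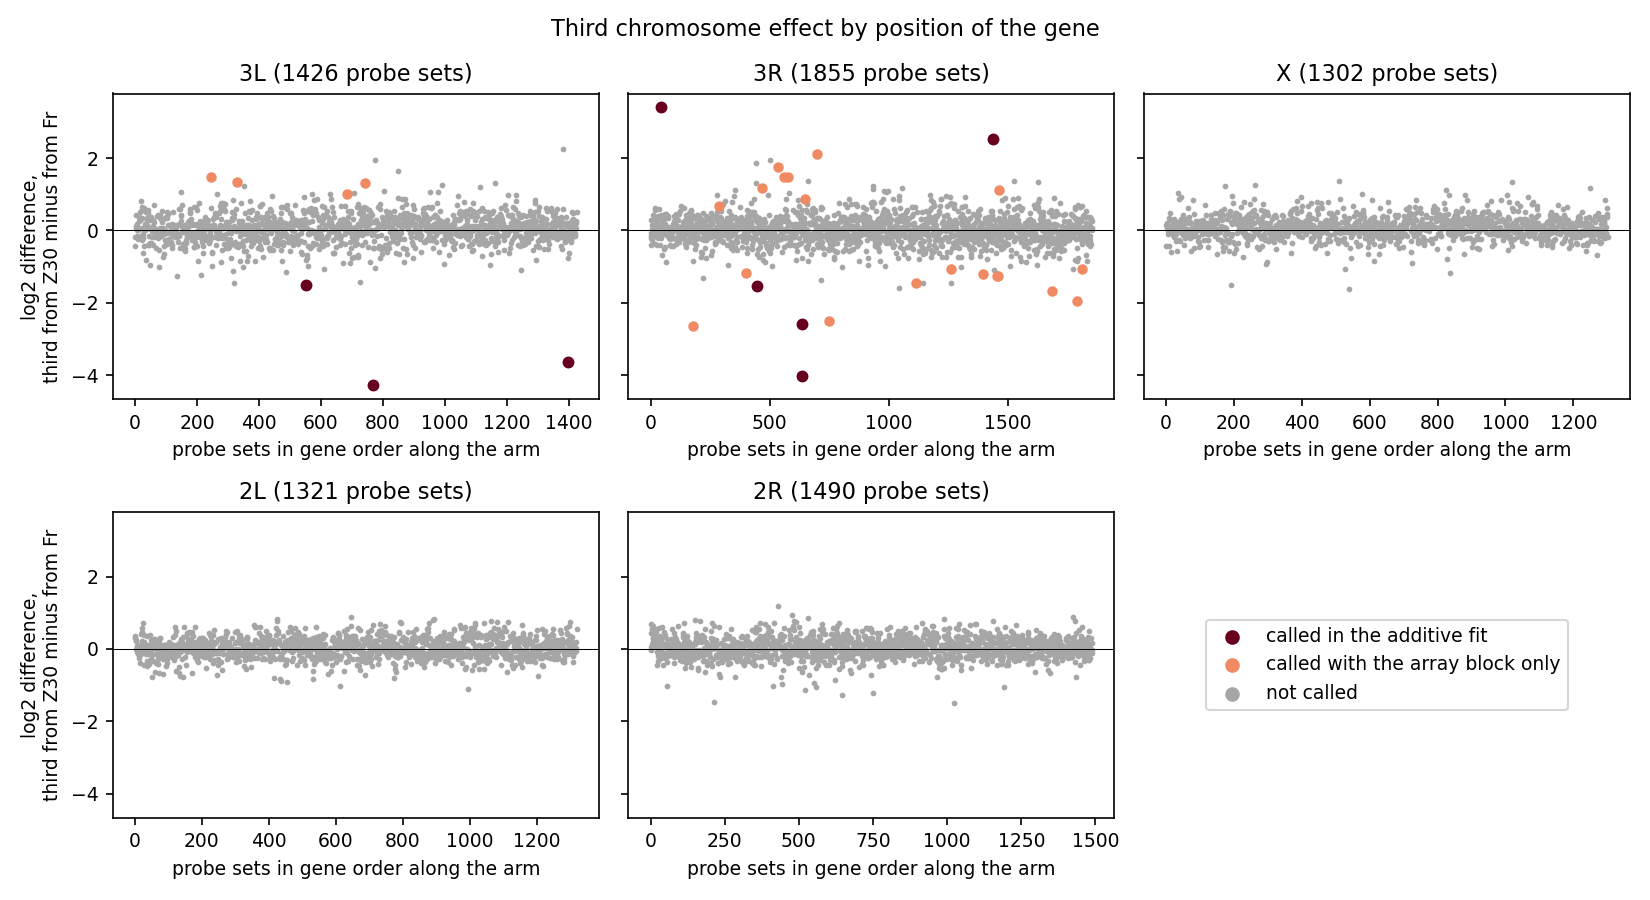
Log2 difference (the third chromosome from Z30 minus from Fr, vertical axis) of each tested probe set in gene order along the arms (horizontal axis), with calls marked. Marked genes lie on 3L (7) and 3R (24), among many genes of the third chromosome near 0, and none lies on X or the second chromosome.

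Called genes were spread along both arms, though unevenly. When each arm was divided into 8 stretches in gene order, the 16 stretches of the third chromosome held 178 to 232 tested probe sets each, and the share at an unadjusted p under 0.05 ran from 1.69% to 11.7% with a median of 8.4% in the additive fit. In the 24 stretches of X and the second chromosome, of 162 to 187 probe sets each, it ran from 0% to 6.13% with a median of 1.42%. With the block the ranges were 3.93% to 18.4% on the third chromosome and 0.606% to 8.59% elsewhere. A gene called with the array block was present in 12 of the 16 stretches of the third chromosome and in 0 of the other 24. The third and seventh stretches of 3R held the most such calls, 7 and 5. The lowest of the 16 was the sixth stretch of 3L. The 5 arrays of each origin did not overlap for 132 of all tested (1.58%), with 49 higher (0.585%) and 83 lower (0.991%) when the chromosome came from Z30. Of the 132, 101 lay on the third chromosome (3.08% of its probe sets, 35 higher and 66 lower), 5 on X (0.384%) and 10 on the second (0.356%). The groups did not overlap for 25 of the 31 called genes, which were chosen on the same contrast.

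**Figure D2:**
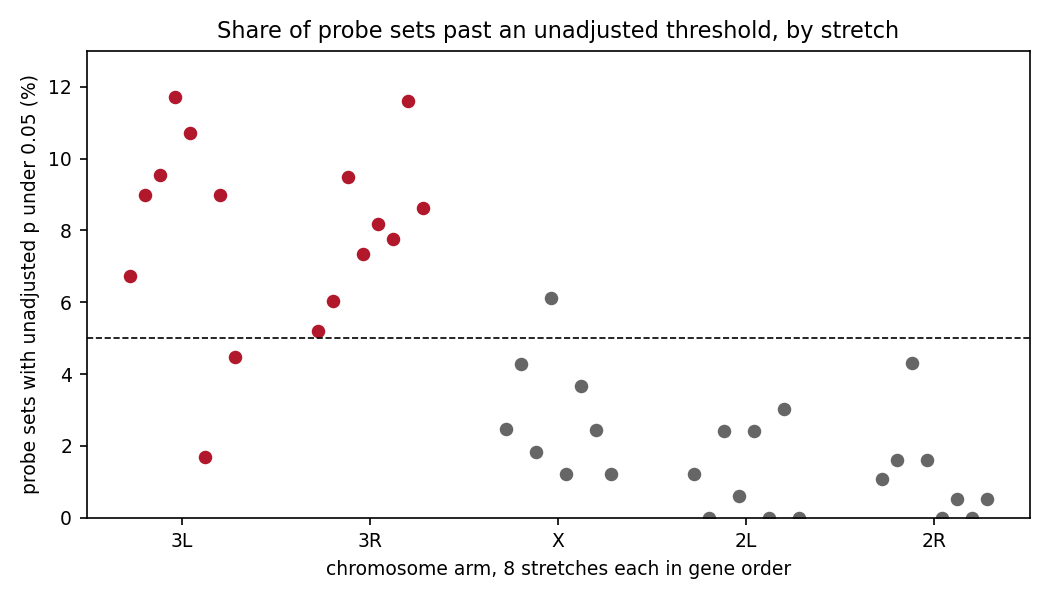
Percent of probe sets at an unadjusted p under 0.05 in the additive fit (vertical axis) in each stretch of X and of the arms of the second and the third chromosome (horizontal axis, 8 stretches per arm in gene order). The dashed line marks 5%; stretches of the third chromosome reach 11.7%, those elsewhere at most 6.13%.

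Among the genes that rose, smash had signals of 2404 on Z30 1, 3130 on Z30 2, 2414 on MMZ, 2563 on MZZ and 2290 on ZMZ, against 124 on Fr 1, 131 on Fr 2, 396 on MZM, 819 on ZMM and 119 on ZZM. The arrays with the third chromosome from Z30 were within a narrow band, while MZM and ZMM were above the other 3 arrays with it from Fr; the groups did not overlap. The fitted difference was 10.6-fold (log2 3.40 ± 0.52, SE, n = 5 arrays per origin; limma adjusted p = 0.0483, and 0.0243 with the array block). This size came from 1 of 5 probe sets of smash. Of the others, 3 were tested and differed by -0.05, 0.29 and 0.43 with none called, and 1 too dim to test differed by 0.20.

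Bili had signals of 774, 915, 594, 695 and 630 on Z30 1, Z30 2, MMZ, MZZ and ZMZ, against 133, 194, 55.6, 172 and 117 on Fr 1, Fr 2, MZM, ZMM and ZZM. Every array with the third chromosome from Z30 was above every array with it from Fr, and MZM was the lowest. The difference was 5.78-fold (log2 2.53 ± 0.32, SE, n = 5 per origin; limma adjusted p = 0.0136, with the block 0.00768). A second probe set of Bili averaged 344 with the chromosome from Z30 and 340 with it from Fr, a log2 difference of 0.10 that was not called. For both risen genes, then, the probe sets of a gene disagreed in size.

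**Figure D3:**
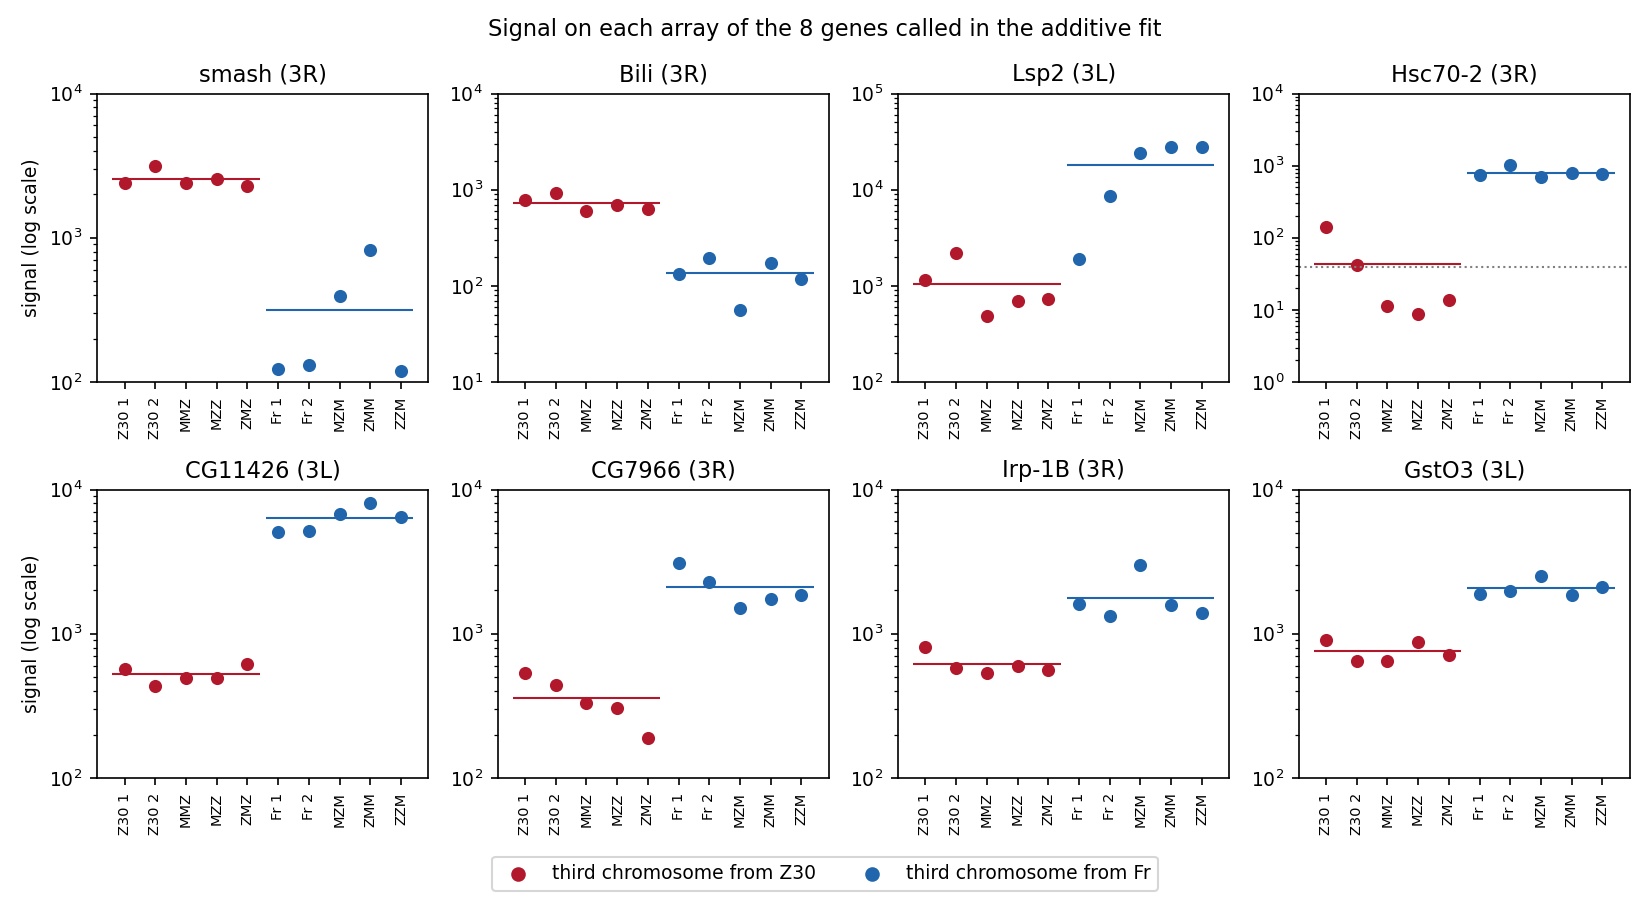
Signal (log axis) of the 8 genes called in the additive fit on each array, with the third chromosome from Z30 on the left (red) and from Fr on the right (blue) of each panel. Horizontal lines are means of 5 arrays, the dotted line in the Hsc70-2 panel is the floor of 38.9, and the groups overlap only for Lsp2.

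Lsp2 fell with the third chromosome from Z30. Its signals were 1160 on Z30 1, 2204 on Z30 2, 482 on MMZ, 696 on MZZ and 728 on ZMZ, against 1913 on Fr 1, 8602 on Fr 2, 23980 on MZM, 28018 on ZMM and 27646 on ZZM. The 3 lines with the third chromosome from Fr were far above the pure strain Fr itself, and Z30 2 lay above Fr 1, so the groups overlapped through the parents. The fitted difference was 19.4-fold lower with the chromosome from Z30 (log2 -4.28 ± 0.49, SE, n = 5 per origin; limma adjusted p = 0.00639, and 0.000171 with the block). Between the parents alone it was -1.34, and among the 6 lines alone -5.19. In whole heads, fewer cells of a type and less RNA per cell cannot be told apart.

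Fat body is the main source of Lsp2 protein, and 6 of 7 fat body markers matched a probe set. Their summed signal overlapped between origins, at 98475 to 185026 with the third chromosome from Z30 and 89742 to 189774 with it from Fr. The sum includes Lsp2 itself and was lowest on Z30 1 and Fr 1. Yp1 had 28895 and 26039 on these arrays, against 46285 to 59814 on the rest, so the overlap says little on fat body content. The other 5 markers were not called in either fit: fit, a female-specific fat body transcript, differed by 0.61, the yolk protein genes Yp1, Yp2 and Yp3 by 0.10, 0.03 and 0.11, and the lipophorin gene apolpp by 0.32. Hexamerins were measured by 2 tested genes of a list of 6, and Lsp2 was the only one called.

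CG11426 showed the smallest adjusted p of all genes. It had signals of 567, 437, 495, 496 and 614 on Z30 1, Z30 2, MMZ, MZZ and ZMZ, against 5100, 5148, 6771, 8086 and 6486 on Fr 1, Fr 2, MZM, ZMM and ZZM. Both groups were tight and lay far apart, and the 3 lines with the chromosome from Fr were somewhat above both Fr arrays. The difference was 12.3-fold lower with the chromosome from Z30 (log2 -3.63 ± 0.18, SE, n = 5 per origin; limma adjusted p = 7.27e-06, and 7.09e-06 with the block). Lipid phosphate phosphatases are membrane enzymes that remove phosphate from bioactive lipids, and in the fly the relatives wun and wun2 guide germ cells. Of 7 tested genes of that list, 1 was called, and the median difference was -0.24 beside 0.04 over all tested. Relatives next to CG11426 on 3L differed by -0.24 (laza), -0.77 (CG11438) and -0.62 (CG11425), none called.

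Hsc70-2 was close to or below the floor of 38.9 in the flies with the third chromosome from Z30. Its signals were 143 on Z30 1, 42.5 on Z30 2, 11.3 on MMZ, 8.9 on MZZ and 13.5 on ZMZ, against 747, 1018, 685, 781 and 760 on Fr 1, Fr 2, MZM, ZMM and ZZM. The 3 substitution lines with the chromosome from Z30 were all at the floor, Z30 1 was above the other 4, and no array overlapped. On the floored scale the difference was 16.4-fold lower (log2 -4.03 ± 0.40, SE, n = 5 per origin; limma adjusted p = 0.0032, and 0.000243 with the block), a size that the floor understates: with the floor at the 10th percentile Hsc70-2 differed by -4.83. Its place above the filter on mean log2 signal rests on the arrays with the third chromosome from Fr. With that filter at the 60th percentile Hsc70-2 was not tested. Of 4 tested Hsp70-family genes, Hsc70-2 alone was called, with a list median of -0.12. In the 2 tested small heat shock genes the differences were -0.23 and -0.16.

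CG7966 is the tested gene next to Hsc70-2 on 3R, with no other tested gene between them. Its signals were 533, 442, 330, 307 and 190 on Z30 1, Z30 2, MMZ, MZZ and ZMZ, against 3107, 2270, 1517, 1734 and 1870 on Fr 1, Fr 2, MZM, ZMM and ZZM. The groups did not overlap, and in each origin the parents were above the lines. The difference was 6.04-fold lower with the chromosome from Z30 (log2 -2.59 ± 0.31, SE, n = 5 per origin; limma adjusted p = 0.00965, with the block 0.00113). The genes flanking the pair were not called in either fit. CG11668 differed by -0.76 without overlap, the serine protease gene snk by 0.57, pic, a damaged-DNA binding protein, by 0.12 and Ace, the acetylcholinesterase, by 0.02.

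Irp-1B, a cytosolic aconitase of the iron regulatory protein family, had signals of 805, 577, 533, 600 and 564 on Z30 1, Z30 2, MMZ, MZZ and ZMZ, against 1596, 1323, 2980, 1576 and 1392 on Fr 1, Fr 2, MZM, ZMM and ZZM. Z30 1 and MZM were the highest of their groups, which did not overlap. The difference was 2.87-fold lower with the chromosome from Z30 (log2 -1.52 ± 0.23, SE, n = 5 per origin; limma adjusted p = 0.0483, and 0.0243 with the block). Among 9 tested genes of iron handling, Irp-1B alone was called, and the list ranged from -1.52 to 0.13 with a median of -0.16.

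GstO3 had signals of 900, 647, 645, 870 and 709 on Z30 1, Z30 2, MMZ, MZZ and ZMZ, against 1898, 1963, 2529, 1870 and 2118 on Fr 1, Fr 2, MZM, ZMM and ZZM. No array overlapped. The difference was 2.83-fold lower with the chromosome from Z30 (log2 -1.50 ± 0.17, SE, n = 5 per origin; limma adjusted p = 0.00639, and 0.00345 with the block). Omega-class enzymes carry an active-site cysteine, and the neighbouring se makes the red eye pigment drosopterin. Beside GstO3 in gene order, se differed by -0.82, GstO2 by 0.06 and GstO1 by -0.99, none called.

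These calls did not all withstand the loss of an array. Lsp2, Hsc70-2 and CG11426 were called in all 10 additive fits that each left out 1 array. CG7966 and GstO3 lost their call without MMZ (limma adjusted p = 0.0847 for each). Bili lost it without Z30 2, MMZ, MZZ, ZMM or ZZM, with a highest adjusted p of 0.0847. The call of smash remained only when MZM or ZMM was left out, and that of Irp-1B only when Z30 1 or ZZM was left out, with a highest adjusted p of 0.344 for each. Without both Z30 1 and Fr 1, smash (adjusted p 0.0963), Bili (0.059) and Irp-1B (0.0849) were not called. The smash call was also lost under quantile normalization (0.0604), median centring (0.0559) and no variance trend (0.098), and that of Irp-1B with no variance trend (0.098).

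A further 23 named genes were called with the array block alone, 12 higher and 11 lower with the third chromosome from Z30. Their limma adjusted p with the block lay between 0.002 and 0.0384, and without it between 0.0659 and 0.645. In 18 of the 23 the groups did not overlap. Absolute log2 differences were 0.67 to 2.65, with SE of 0.11 to 0.44 in the fit with the block. In that fit, leaving out MMZ kept 7 of the 31 named calls, ZMM 9, Fr 2 10, MZZ and ZZM 12 each, ZMZ 13, Z30 2 24 and MZM 30. CG6912 was the single gene of the 23 called whichever of the 8 arrays outside the block was left out.

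Among regulators of chromatin, trx and E(z) rose with the array block. The gene trx, which encodes the trithorax histone H3 methyltransferase that maintains active transcription, had signals of 700, 570, 1045, 867 and 1169 on Z30 1, Z30 2, MMZ, MZZ and ZMZ, against 123, 208, 96.0, 327 and 344 on Fr 1, Fr 2, MZM, ZMM and ZZM. The groups did not overlap, and the difference was 2.10 (4.28-fold; limma adjusted p = 0.0243 with the block and 0.0659 without it). E(z), the methyltransferase of the Polycomb repressive complex that acts in opposition to trithorax, had signals of 560, 557, 487, 554 and 557 on the same arrays with the chromosome from Z30, against 362, 259, 280, 237 and 238 on those with it from Fr. All 5 arrays with the chromosome from Z30 were above all 5 with it from Fr, and the difference was 1.02 (2.03-fold; limma adjusted p = 0.0364 with the block and 0.15 without it). Of 17 tested genes of the trithorax and Polycomb groups, 14 of them on the third chromosome, these 2 rose with the block, none fell, and the median was 0.15 beside 0.04 over all tested.

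The nuclear factors zfh1 and Saf-B fell with the array block. The zinc-finger homeodomain repressor zfh1, needed in mesoderm and hemocytes, had 62.5, 129, 108, 111 and 83.9 on Z30 1, Z30 2, MMZ, MZZ and ZMZ, against 327, 318, 243, 475 and 520 on Fr 1, Fr 2, MZM, ZMM and ZZM. The groups did not overlap, and the difference was -1.95 (limma adjusted p = 0.0243 with the block, 0.0678 without). Summed hemocyte markers, all 7 matched, overlapped at 5256 to 9157 with the chromosome from Z30 and 4638 to 12578 with it from Fr, with medians of 6706 and 8699. Their part in the result for zfh1 was not tested. Saf-B, the scaffold attachment factor B, averaged 372 ± 86.9 with the chromosome from Z30 and 850 ± 220 with it from Fr (SD, n = 5 each; log2 difference -1.21, limma adjusted p = 0.0355 with the block and 0.15 without).

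Ccp84Ag and stops fell with the array block. Ccp84Ag, a chitin-binding cuticle protein of a cluster on 3R, had 185, 97.8, 84.3, 304 and 345 on Z30 1, Z30 2, MMZ, MZZ and ZMZ, against 781, 1734, 837, 1204 and 1118 on Fr 1, Fr 2, MZM, ZMM and ZZM. The groups did not overlap, and the difference was -2.65, or 6.29-fold lower (limma adjusted p = 0.0315 with the block, 0.0659 without); in the 6 lines alone it was -1.63. Its cluster neighbours Ccp84Ae and Ccp84Ad differed by 0.05 and -0.83 and were not called, and Ccp84Ad is read by a probe set shared within a gene family. The gene stops, whose product stabilises the phospholipase C of photoreceptors, averaged 798 ± 236 with the chromosome from Z30 and 1601 ± 457 with it from Fr (SD, n = 5 each), with overlapping groups and a difference of -1.06 (limma adjusted p = 0.0315 with the block, 0.406 without). A second probe set of stops differed by -1.08 (adjusted p 0.0638 with the block) and another by -0.38, neither called. Of 13 tested phototransduction genes none was called, with a median of 0.04.

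Kinase-like genes of the EcKL family, enzymes related to choline and ecdysteroid kinases, moved both ways. CG6908 rose, with 644, 547, 1119, 622 and 703 on Z30 1, Z30 2, MMZ, MZZ and ZMZ, against 220, 197, 390, 252 and 140 on Fr 1, Fr 2, MZM, ZMM and ZZM, a difference of 1.75 (limma adjusted p = 0.0293 with the block, 0.0659 without). CHKov1 rose as well, averaging 1228 ± 399 with the chromosome from Z30 and 527 ± 144 with it from Fr (SD, n = 5 each; difference 1.13, adjusted p 0.0328 with the block and 0.182 without). CHKov1 is known for alleles that carry a transposon insertion and affect resistance to a virus and to organophosphates. CG10553 and CG31436 fell, by 1.26 and 1.25 on the log2 scale, each with an adjusted p of 0.0281 with the block, and of 0.294 for CG10553 and 0.182 for CG31436 without it. None of these 4 overlapped between origins, CG10553 by a narrow margin, with ZMZ and Fr 1 both near 581. On the list of 46 EcKL genes, which lacks CHKov1 and CHKov2, 20 were tested, with 1 higher and 2 lower with the block and a median of -0.27.

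CG31436, CG10553 and CHKov1 lie in a single run of EcKL genes on 3R, a run picked after its values were seen. In gene order the differences were -1.25 for CG31436, -0.26 for CG10550, -1.26 for CG10553, 0.33 for CG10560, -0.03 for CG10562, 1.13 for CHKov1 and 0.30 for CHKov2. Within these 7 neighbouring relatives, therefore, 2 were lower with the chromosome from Z30, 1 was higher and the 4 others were not called. CG10550, CG10560 and CG10562 lay between the called genes. The tested gene just before CG31436, CG31098, is on the EcKL list too and differed by -0.29 without a call. Relatives can share sequence, and probe sequences were not used here to test how well each probe set separates them.

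**Figure D4:**
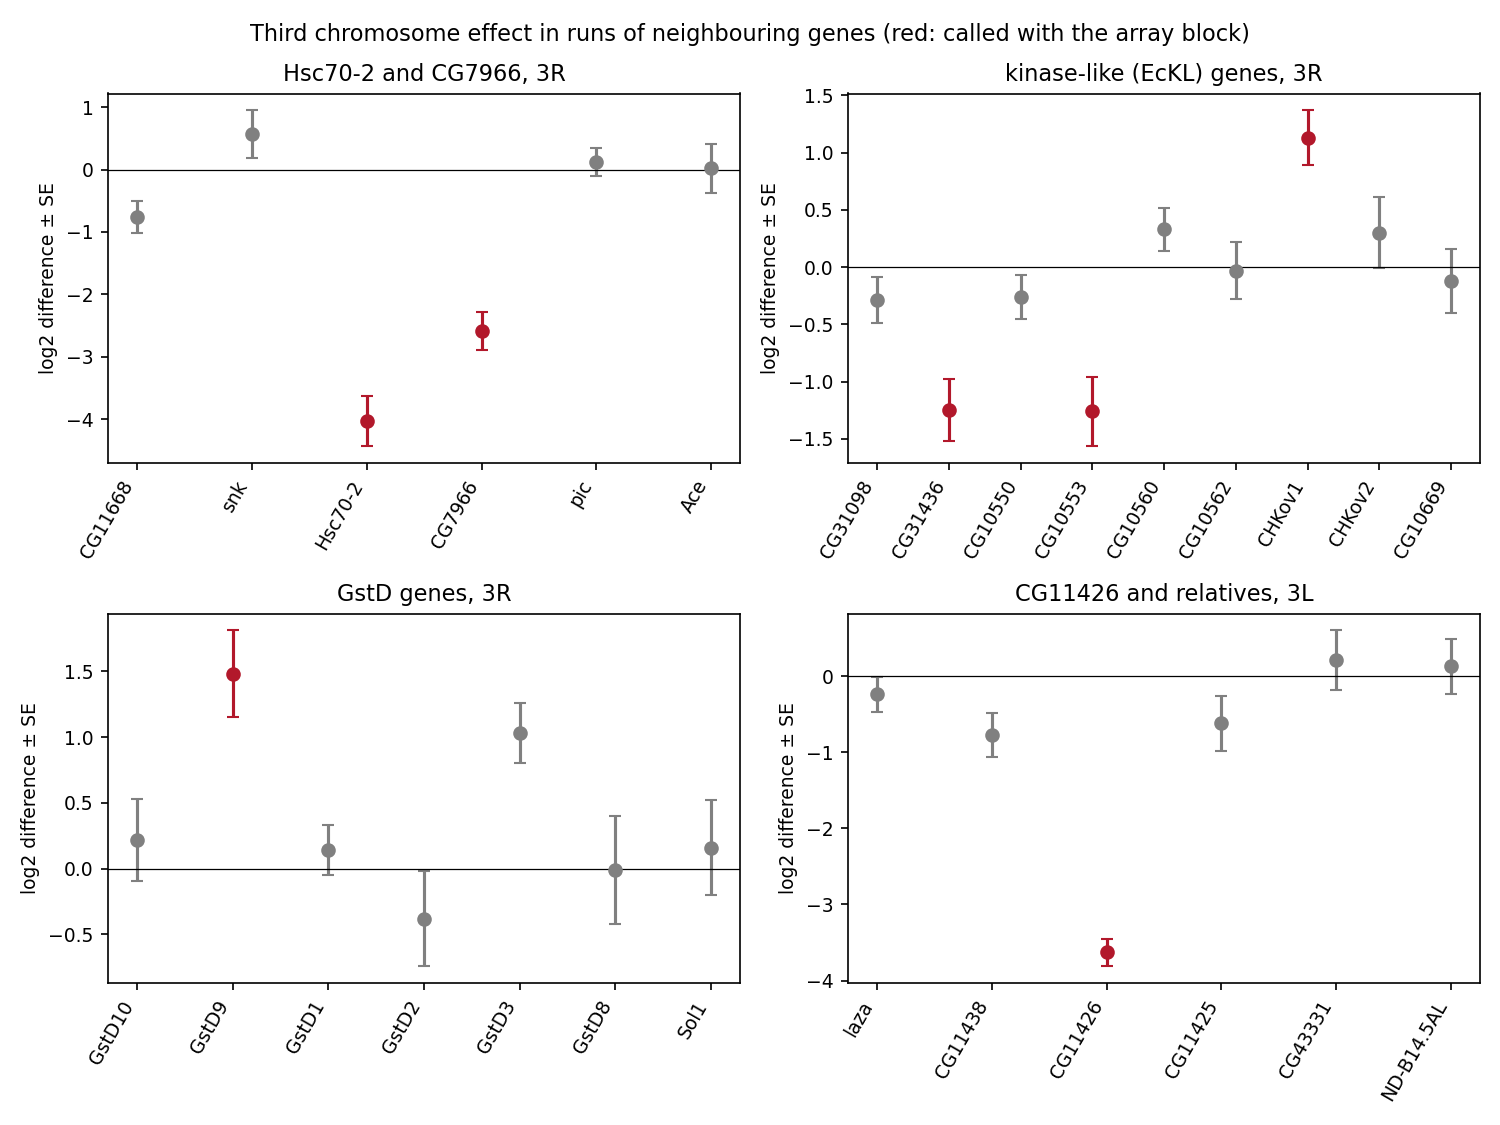
Log2 difference (the third chromosome from Z30 minus from Fr, points, with SE bars from the additive fit) of tested genes in gene order in 4 runs of neighbours on the third chromosome, with genes called with the array block in red. Called genes sit beside uncalled neighbours; Hsc70-2 (-4.03) and CG7966 (-2.59) are the only pair of immediate neighbours called in the additive fit.

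Enzymes of detoxification and metabolism were called in both directions. GstD9, a delta-class glutathione S-transferase, rose, with 2667, 2690, 1969, 1698 and 2006 on Z30 1, Z30 2, MMZ, MZZ and ZMZ, against 1750, 1118, 677, 726 and 442 on Fr 1, Fr 2, MZM, ZMM and ZZM. Fr 1 was above MZZ, so the groups overlapped, and the difference was 1.48 (limma adjusted p = 0.0315 with the block, 0.192 without). In the same cluster GstD3 differed by 1.03 without overlap but was not called (adjusted p 0.115 with the block), and GstD1 differed by 0.14. Over 10 tested delta and omega genes, 1 rose and 1 fell with the block, with a median of 0.02. Of 18 tested genes of other classes none was called.

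Sodh2, a sorbitol dehydrogenase, averaged 937 ± 297 with the chromosome from Z30 and 480 ± 155 with it from Fr (SD, n = 5 each; difference 1.17, limma adjusted p = 0.0297 with the block and 0.0678 without). It was the exception in the parents, where the differences of the 2 array pairs were 0.08 and -0.01, against 1.37 in the 6 lines. CG8036, a transketolase of the pentose phosphate pathway, averaged 14651 ± 2547 against 9373 ± 1256, with a difference of 0.67 (adjusted p 0.0328 with the block, 0.51 without) and overlapping groups. Dph1, which acts in making the diphthamide residue of elongation factor 2, rose by 1.30 (adjusted p 0.0236 with the block, 0.0875 without) with 558 ± 136 against 227 ± 39.5 (SD, n = 5 each); 1 of 5 tested diphthamide genes was called, with a median of 0.25.

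Among metabolic and transport genes that fell, CG11899, a phosphoserine aminotransferase of serine synthesis, averaged 755 ± 299 with the chromosome from Z30 and 2420 ± 800 with it from Fr (SD, n = 5 each; difference -1.67, limma adjusted p = 0.0323 with the block and 0.15 without). MtnA, a metallothionein that binds copper and other metals, averaged 7354 ± 1416 against 16246 ± 4171, a difference of -1.18 (adjusted p 0.0309 with the block, 0.0895 without). The sodium/proton antiporter Nha2 averaged 355 ± 29.8 against 759 ± 108, a difference of -1.06 (adjusted p 0.0303 with the block, 0.0742 without). A second, dimmer probe set of Nha2 differed by -1.44 and was not called (adjusted p 0.155 with the block). None of these 3 genes overlapped between origins.

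Genes whose role is left unstated made up the rest. With the block 4 of these genes rose. CG42324 differed by 1.47 (limma adjusted p = 0.0281 with the block, 0.0659 without), CG12224 by 1.47 (0.0266 and 0.182) and CG9813 by 0.86 (0.0315 and 0.135), all without overlap. CG11353 differed by 1.35 (0.0384 and 0.645) with overlapping groups, Z30 2 at 214, MZZ at 216 and ZMZ at 192 lying below Fr 1 at 228. CG17272 fell, by 1.45 on the log2 scale (0.0119 and 0.116), without overlap, and so did CG6912, with a difference of -2.49. CG6912 had the smallest adjusted p of the genes added with the block, 0.002 by limma against 0.176 without it. Its signals were 68.9, 189, 168, 193 and 187 on Z30 1, Z30 2, MMZ, MZZ and ZMZ, against 223, 551, 733, 1474 and 1792 on Fr 1, Fr 2, MZM, ZMM and ZZM. The lowest array of each origin was Z30 1 or Fr 1, the 2 arrays of the block, and the groups did not overlap.

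The substitution lines give 4 pairs of genotypes that, by their labels, share the first and second chromosomes and differ in the third: MMZ minus Fr, MZZ minus MZM, ZMZ minus ZMM and Z30 minus ZZM. They use the same arrays as the fit, hold 1 array or a mean of 2 on each side, and describe its values without testing them again. The 31 called genes had the same sign in all 4 pairs, and 14 of them exceeded 1 log2 unit in all 4. Over all tested probe sets 974 (11.6%) had the same sign in all 4 pairs, 14.8% on the third chromosome, 9.68% on X and 8.36% on the second, and 17 (0.203%) exceeded 1 log2 unit the same way in all 4. Of these 17, 16 were on the third chromosome, 7 higher and 9 lower with it from Z30.

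Some genes had nearly the same difference in every background. CG11426 differed by -3.37, -3.77, -3.72 and -3.70 in the 4 pairs in the order given and GstO3 by -1.58, -1.54, -1.40 and -1.47. Others varied: smash differed by 4.24, 2.70, 1.48 and 4.53, and CG6912 by -1.06, -1.93, -2.98 and -3.97. A limma test of the interactions of the third with the first and second origins called 0 of 8379 probe sets, with 321 at an unadjusted p under 0.05 and a smallest adjusted p of 0.853. That fit has 3 residual degrees of freedom, and a p that misses the threshold does not show that backgrounds act alike.

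**Figure D5:**
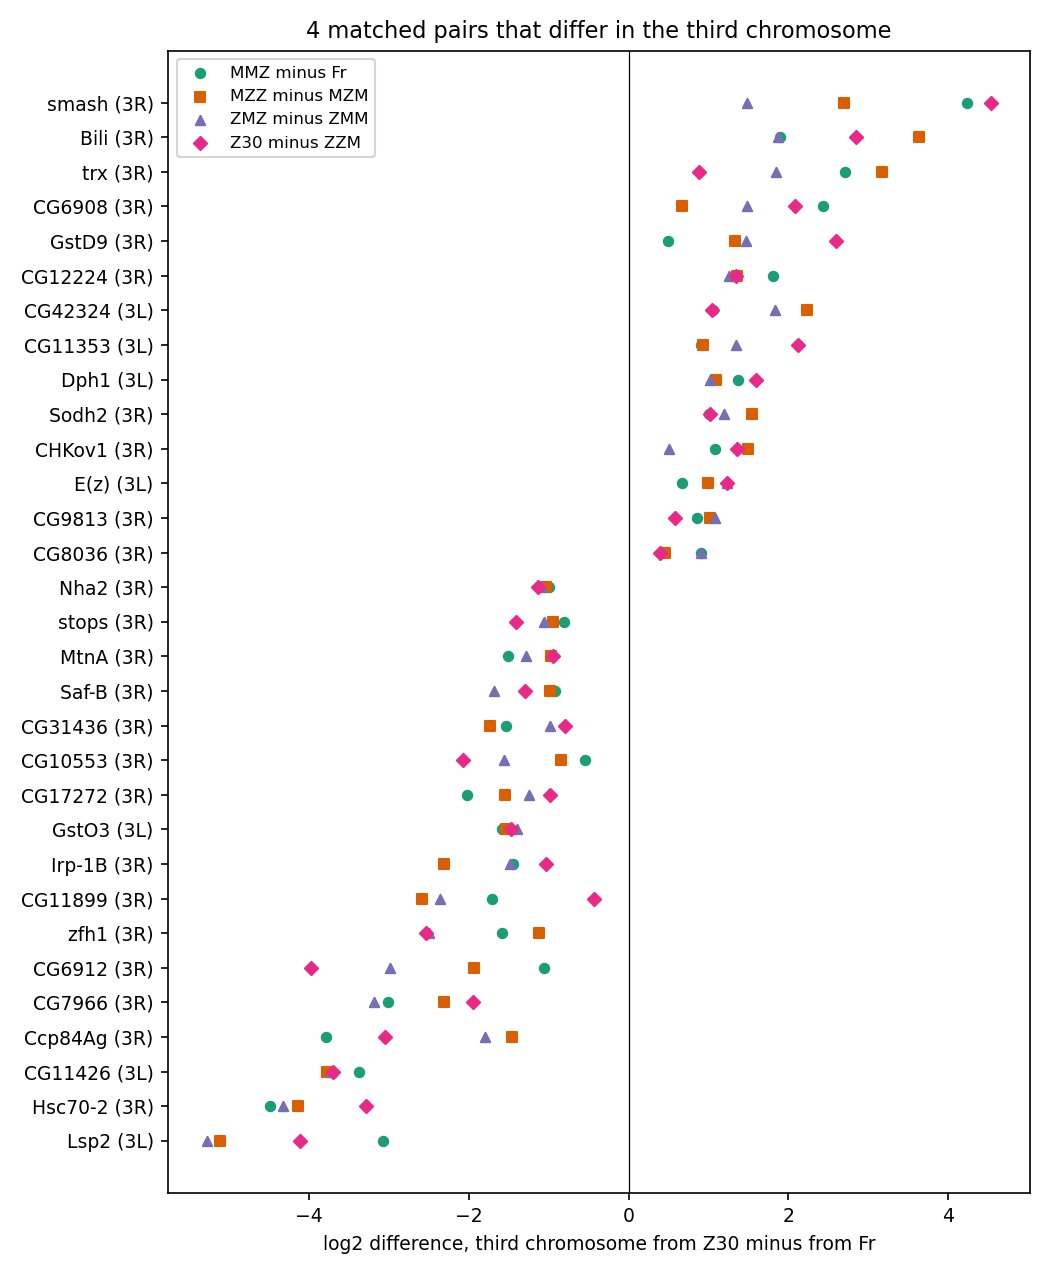
Log2 difference (the third chromosome from Z30 minus from Fr) of the 31 called genes in each of 4 matched backgrounds. Points of a gene lie on the same side of 0 in all 4; those of CG11426 span -3.77 to -3.37 and those of smash 1.48 to 4.53.

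The pure strains and the lines share no array, so they were set side by side. All 31 named genes had the same sign in the parents as in the 6 lines, and in 30 of 31 both parental array pairs had the sign of the fit, Sodh2 being the exception. These genes were chosen on all 10 arrays, which include both sets. Over all tested probe sets of the third chromosome, chosen on the parents alone, 169 differed by over 1 log2 unit the same way in both parental pairs. Of these, 108 (63.9%) had the same sign for the third origin in the lines, with a slope of 0.32 of the line difference on the parental difference. On X, 28 of 66 (42.4%) did, with a slope of -0.16, and on the second chromosome 79 of 149 (53%), with a slope of 0.05.

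Genes with a known place in mate choice were not among those called. On the third chromosome, Desat1, the desaturase that makes precursors of the main cuticular pheromones, differed by 0.13 ± 0.15 (SE, n = 5 per origin; limma adjusted p = 0.815 with the block, 0.998 without). Desat2, the desaturase whose African and Caribbean allele gives females a different pheromone isomer, had signals of 549, 270, 388, 310 and 373 on Z30 1, Z30 2, MMZ, MZZ and ZMZ, against 571, 259, 266, 156 and 209 on Fr 1, Fr 2, MZM, ZMM and ZZM. The groups overlapped, and the difference was 0.57 ± 0.35 (SE; adjusted p 0.511 with the block, 0.998 without). The sex-determination transcription factor genes fru and dsx differed by 0.52 ± 0.34 and 0.41 ± 0.46 (SE; adjusted p 0.706 and 0.813 with the block, 0.998 each without).

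Other lists without a call in either fit were cuticular hydrocarbon synthesis (12 tested, median difference -0.10), sex determination and courtship (14, 0.18), odorant-binding proteins (17, -0.08), cytochrome P450 genes (13, of which 10 on the third chromosome, -0.16), carboxylesterases (9, -0.24), UDP-glycosyltransferases (7, -0.01), clock genes (11, 0.06), antimicrobial peptides (5, -0.25), immune pathway genes (15, -0.01), lysozymes (5, 0.16), oxidative phosphorylation (31, -0.10) and synaptic vesicle release (10, 0.20). Single members of these lists differed by over 1 log2 unit without a call. Cyp313a1 differed by -1.36 (limma adjusted p = 0.0582 with the block, 0.192 without) and alpha-Est2 by -1.30 without overlap (0.0918 and 0.15). The clock gene cwo differed by 1.31 (0.144 and 0.243), and the antimicrobial peptide genes DptB and Mtk by -1.48 and -1.21 (0.264 and 0.486 with the block). Odorant and gustatory receptors and their co-factors were mostly too dim, with 2 of 20 on the array tested, and of 7 takeout family genes on the array 1 was tested. The 2 receptor-list genes tested were Snmp1 on 3R and Gr32a, neither called. Snmp1 differed by -1.44 with overlapping groups (limma adjusted p = 0.0716 with the block, 0.423 without) and Gr32a by -0.08. Among 12 tested genes of epithelial junctions smash alone was called, with a list median of 0.42, and among 7 tested FERM-domain genes Bili alone, with a median of 0.11.

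By Pearson correlation over the 10 arrays, which share the fitted contrast, the probe sets most like smash were CG6908 (r = 0.90), CG7133 (0.89) and DCAF12 (0.87). Those most like CG11426 were GstO3 (0.97), Hsc70-2 (0.96) and Nha2 (0.95), and those most like Lsp2 were Wbp2 (0.92), CG6912 (0.90) and Jhbp1 (0.89). All 9 lie on the third chromosome.

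Off the third chromosome no probe set with a single gene was called in either fit. The nearest, picked after its values were seen, was the X-linked Cubn, which encodes cubilin, an endocytic receptor for proteins in nephrocytes. It averaged 130 ± 49.9 with the third chromosome from Z30 and 361 ± 57.0 with it from Fr (SD, n = 5 each), without overlap. The difference was -1.61 (limma adjusted p = 0.135, and 0.0553 with the block), and the matched pairs gave -1.77, -2.54, -1.02 and -1.18. It was the 1 of the 17 probe sets over 1 log2 unit in all 4 backgrounds that was not on the third chromosome.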

How the data were processed

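The deposited values are linear intensity, 1 signal per probe set and array on 10 oligonucleotide arrays of 14010 probe sets. The software with which the authors made them is not given in the sources used here. Each array has a 2% trimmed mean of 500.1, so arrays had been scaled before deposit. Here the 44 control probe sets were left out, signals were raised to a floor at the pooled 20th percentile (38.9) where they lay under it, and then log2 transformed. A filter on mean log2 at the 40th percentile took out 5587 dim probe sets, and 8379 remained. Folds near the floor are understated. Symbols of the platform annotation (12443 of 13966 probe sets with 1 gene, 327 with several, 1196 with none) were updated through Entrez identifiers for 12394 to the Release 6 plus ISO1 MT annotation, used for names, arms and gene order. Probe sequences and coordinates were not used here, and the number of arrays limits the precision.

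Origins of the 3 chromosomes were terms of an additive limma 3.58.1 model in R 4.3.3 (eBayes with a mean-variance trend; 6 residual degrees of freedom, or 5 when Fr 1 and Z30 1 form a block), with Benjamini-Hochberg adjustment over 8379 and a threshold of 0.05. Scripts were tested on simulated data. Genes named are all those called in either fit, Desat1, Desat2, fru and dsx, list members by count, the tested neighbours of called genes, and the 3 most correlated probe sets for smash, CG11426 and Lsp2. Where a gene has more than 1 probe set, its values are those of the called probe set, or of the brightest where none was called. Members, gene lists and tests were chosen with earlier results of these data known, and several lists were built around genes already seen to differ. Alternatives were normalization, floor, filter, variance model, covariates and arrays left out.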

Additional observations from a re-analysis of the deposited data

Results flagged for a closer look

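Of 76 groups of 5 arrays of the named probe sets, 9 held an array far from the other 4 by Dixon's criterion (gap over range above 0.71). About 1 in 20 groups of 5 independent draws from a single normal distribution would exceed that limit. Each group here mixes genotypes and the same arrays recur across groups, so that rate does not measure chance here. The criterion was applied to log2 signals after the floor, while the values printed below are the deposited signals. Z30 1 was that array in 6 of the 9. It had 143 for Hsc70-2 (8.9 to 42.5 on the other 4 arrays with the third chromosome from Z30) and 805 for Irp-1B (532.8 to 599.6). For Hsc70-2, 3 of those 4 arrays lay under the floor of 38.9 and were raised to it, which narrowed their spread in the criterion. It had 10285 for CG8036 (15079 to 16932.9) and 68.9 for CG6912 (168.5 to 192.7). It had 376 for CG10553 (516.7 to 580.8) and 253 for CG31436 (168.4 to 185.2). MMZ had 487 for E(z) (554.2 to 559.6). Of arrays with the third chromosome from Fr, MZM had 2980 for Irp-1B (1322.6 to 1596.2 on the other 4) and Fr 1 had 109 for CG12224 (285.5 to 395.5). Without both Z30 1 and Fr 1 the additive fit called 6 probe sets, 0 higher and 6 lower, of which 5 were among the 8, and smash, Bili and Irp-1B lost their call.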

How the results depend on the processing

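The count of 8 probe sets became 34 with a block for Fr 1 and Z30 1, 13 with that block and no variance trend, 23 with the third origin alone, 4 with pairwise interactions, 3 with no filter on dim probe sets, 3 in the 6 lines alone and 3 in the 4 parent arrays alone, whose contrast is the strain and which called 1 probe set off the third chromosome. Leaving out 1 array gave 3 (without MMZ) to 9 (without MZM), with 5 without Z30 2; with the block it gave 10 (without ZMM) to 46 (without MZM), with 32 without Z30 2 and 17 without ZMZ. The cause was not tested. The remaining settings that did not leave out a single array gave 6 to 9 calls. Over 16 settings apart from leaving out single arrays, smash was called in 7, Irp-1B in 8, Bili in 12 and CG11426 in 16. Lsp2, CG7966 and GstO3 were each called in 13 of the 16, and Hsc70-2 in 13 of the 15 that tested it. A replicate block on the number in the titles called 6, without smash (adjusted p 0.106) and Irp-1B (0.0918); Z30 1 and Fr 1 deviated together from their strain means (r = 0.64), but 2 pairs are too few to count as pairing. After median centring the median difference over all tested was -0.06, in place of 0.04, with 1 higher and 8 lower. The limma test of the third chromosome effect across backgrounds, repeated with the block (an alternative chosen after seeing the data), again called 0, with 524 at an unadjusted p under 0.05.

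None of the 1288 recomputed values of the named genes reversed its sign. Some sizes moved by over 1.5 times: in the 6 lines alone smash was 2.09, CG6908 1.08 and Ccp84Ag -1.63, and in the parents alone Lsp2 was -1.34, CG6912 -1.62, GstD9 0.94, CG12224 2.22 and Sodh2 0.03. No line has a second array, which limits precision.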
